A study of Mus musculus with 8 samples.

Results

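The regions described here are stretches of chromatin that were listed as open mainly in mouse CD4 T cells lacking Tet1 and Tet3. The assay was ATAC-seq, a method that uses a transposase to cut and tag accessible DNA. The peaks of 8 deposited lists were merged into 175276 union regions wherever they overlapped by at least 1 bp. Each list was then shortened to its peaks of highest −log10 p, as many as the shortest list held, so that every library contributed the same number of peaks. Regions were chosen by these listings alone: a region was taken when at least 3 of 4 conditional double-knockout (cDKO) libraries and at most 1 of 4 control libraries listed it, and when it lay outside chromosome 6, which carries Tet3. This rule found 4086 regions, 4.51% of the 90587 regions outside chromosome 6 that any shortened list held. They are called cDKO-stronger below. The opposite rule gave 4519 control-stronger regions, 4.99% of the same 90587. Another 345 regions on chromosome 6 met the cDKO rule and were left out.

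The study examined naive CD4 T cells sorted from spleen and turned towards induced regulatory T cells, in the presence and absence of Tet1 and Tet3 and of added IL-2. Its 4 groups were cDKO cells with TGFb and IL-2, cDKO cells with TGFb only, control cells with TGFb and IL-2, and control cells with TGFb only, each with 2 libraries. Cells of every group were activated for 48 h with antibodies to CD3 (0.25 µg/mL) and CD28 (1 µg/mL) and 20 ng/mL TGF-β, and the IL-2 arms also had 100 U of IL-2. Each library was made from 90000 cells. The labels give the control cells as control or WT and the mutant cells as Tet1/3 cDKO. The Cre driver, the deleted exons, the sex and age of the mice and the animals behind each replicate were not stated in the labels, so the spread between replicates may be technical. The longest deposited list held 145979 peaks, and no list gives a read depth. A marker gene was counted where a listed region lay within 1 kb of a gene end. All 7 CD4 T cell marker genes read in this way had a listed region in every library. Not every CD4 T cell marker named beforehand was among the 7. Of the 2 CD8 T cell markers, both on chromosome 6, both had one in 3 cDKO libraries and 1 had one in replicate 2 of cDKO with TGFb only, against 1 in every control library. Of the markers of other cells, 1 of 4 NK cell genes in each library, 3 or 4 of 7 B cell genes, 3 or 4 of 8 myeloid genes and 1 or 2 of 4 erythroid genes had one. An open region near a gene is no measure of its expression, and the part of other cells in the results was not tested.

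TET enzymes oxidise 5-methylcytosine, a step that leads to loss of DNA methylation, mostly at CG dinucleotides. In T cells, TET activity keeps regulatory elements of lineage genes, such as those of Foxp3, free of methylation. The regions here are those listed more often when 2 of the enzymes were missing.

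A small part of these regions lay at promoters, and 161 RefSeq promoter windows met one. The 5 examples below are promoters of protein-coding genes met by a region that all 4 cDKO lists and no control list held. They are shown because they range from few to many CG dinucleotides and include genes of immune cells. Each is the 250 bases before a RefSeq start in GRCm38.p6, written 5′ to 3′ along the gene, with every CG in capitals.
Gnas, chr2:174284070-174284319, plus strand: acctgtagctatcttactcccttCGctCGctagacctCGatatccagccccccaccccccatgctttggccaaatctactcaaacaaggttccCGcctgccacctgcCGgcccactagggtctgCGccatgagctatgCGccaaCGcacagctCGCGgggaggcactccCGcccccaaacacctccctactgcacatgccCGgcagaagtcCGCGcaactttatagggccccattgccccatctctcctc
Myo1f, chr17:33555457-33555706, plus strand: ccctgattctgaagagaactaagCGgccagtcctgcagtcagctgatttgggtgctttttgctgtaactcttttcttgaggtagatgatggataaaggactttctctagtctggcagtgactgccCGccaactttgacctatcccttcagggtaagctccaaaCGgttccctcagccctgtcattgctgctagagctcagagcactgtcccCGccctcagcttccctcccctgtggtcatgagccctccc
P2rx7, chr5:122650133-122650382, plus strand: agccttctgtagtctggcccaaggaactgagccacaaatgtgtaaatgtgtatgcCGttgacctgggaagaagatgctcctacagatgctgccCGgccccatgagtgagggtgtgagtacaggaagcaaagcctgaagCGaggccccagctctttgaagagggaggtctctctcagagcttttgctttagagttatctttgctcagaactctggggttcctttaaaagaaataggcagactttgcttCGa
Celf5, chr10:81472864-81473113, minus strand: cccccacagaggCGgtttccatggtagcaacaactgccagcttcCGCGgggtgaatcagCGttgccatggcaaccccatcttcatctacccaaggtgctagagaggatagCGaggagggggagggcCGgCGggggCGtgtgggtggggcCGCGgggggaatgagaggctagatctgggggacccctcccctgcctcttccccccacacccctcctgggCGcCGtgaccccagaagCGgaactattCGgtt
Aif1l, chr2:31950053-31950302, plus strand: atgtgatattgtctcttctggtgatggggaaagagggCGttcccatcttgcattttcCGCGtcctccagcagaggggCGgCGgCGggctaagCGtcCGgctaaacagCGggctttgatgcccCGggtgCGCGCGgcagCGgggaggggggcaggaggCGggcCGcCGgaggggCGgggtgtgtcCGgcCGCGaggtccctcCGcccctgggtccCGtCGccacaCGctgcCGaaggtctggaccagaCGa
The Myo1f and P2rx7 sequences held 4 CG each, the Gnas and Celf5 sequences 14 each and the Aif1l sequence 27. Their observed over expected CG content was 0.228 for Myo1f, 0.26 for P2rx7, 0.522 for Celf5, 0.688 for Gnas and 0.916 for Aif1l. Gnas, an imprinted gene with several promoters, encodes the stimulatory G protein alpha subunit. P2rx7 encodes an ATP-gated channel of T cells, Myo1f a class I myosin of blood cells, Celf5 an RNA-binding protein best known from neurons, and Aif1l an actin-binding protein. The printed Gnas window lies just before the outermost start of the gene. The P2rx7 and Celf5 starts lie inside their genes, more than 1 kb from either end. Which start gives rise to the products named was not examined.

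For contrast, 2 promoters met by control-stronger regions are shown in the same way, here with the letters TGANTCA, the AP-1 motif, in capitals on either strand. They were taken from the control-stronger promoters that hold it, so they illustrate the motif, and the shares of promoters that hold it are given further on.
Sdcbp2, chr2:151572373-151572622, plus strand: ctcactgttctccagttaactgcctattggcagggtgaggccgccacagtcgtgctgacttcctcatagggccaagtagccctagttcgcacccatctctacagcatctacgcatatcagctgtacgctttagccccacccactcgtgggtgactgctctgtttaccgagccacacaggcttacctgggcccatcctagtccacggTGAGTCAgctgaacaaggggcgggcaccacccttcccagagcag
Bpifc, chr10:86011861-86012110, minus strand: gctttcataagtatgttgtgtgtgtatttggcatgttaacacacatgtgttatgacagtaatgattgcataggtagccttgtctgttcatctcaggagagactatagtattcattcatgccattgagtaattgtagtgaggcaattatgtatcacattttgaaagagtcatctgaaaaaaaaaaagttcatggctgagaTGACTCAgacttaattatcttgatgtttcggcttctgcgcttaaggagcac
Each held 1 match. The Celf5 sequence printed above held these letters too. The Gnas sequence held the CTCF core letters CCACNAGGG, the P2rx7 sequence the TCF/LEF letters CTTTGAA and the Myo1f sequence the RUNX letters TGTGGT. A match is a description of the letters, not evidence of a bound factor.

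The listing in 3 or 4 cDKO and 0 or 1 control libraries is what chose the regions, so it is described and not tested. Of the 4086 regions, 592 (14.5%) were in all 4 cDKO lists and no control list, which is 0.654% of all listed regions. A further 1114 (27.3%) were in 4 cDKO and 1 control list, 1079 (26.4%) in 3 cDKO lists and no control list, and 1301 (31.8%) in 3 cDKO lists and 1 control list. By library, the cDKO lists with IL-2 held 3326 and 3328 of them, the cDKO lists with TGFb only 3663 and 3647, the control lists with IL-2 388 and 548, and the control lists with TGFb only 674 and 805.

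Most of these regions were weak peaks in cDKO cells and stood lower in the control lists, without being absent from them. For 3694 of them (90.4%), the weakest cDKO listing fell in the last 25% of the shortened list, and the median of that rank was 60194. Only 14 were among the first 32905 peaks, 50% of the shortened list, in all 4 cDKO lists. In the whole deposited lists, which go deeper, the regions had a peak in 3917 and 4044 cases in the cDKO libraries with IL-2 and in 4028 and 4067 with TGFb only. In control cells they had one in 3169 and 548 cases with IL-2 and in 3967 and 2765 with TGFb only. The figure of 548 comes from replicate 2 of control with IL-2, whose deposited list is the shortest and so could not be searched further down. Just 62 of the 4086 regions (1.52%) had no peak in any deposited control list, and 391 (9.57%) had one in all 4. Among control-stronger regions, 325 (7.19%) had no peak in any deposited cDKO list. These counts follow the lengths of the lists, which were 96752 to 115250 peaks for cDKO. Leaving out replicate 1 of control with TGFb only, whose list is the longest, loosened the rule by 1 list and chose a larger set of regions. Of that set, 429 had no peak in the remaining deposited control lists. "Stronger" therefore means a higher place in a ranked list, and most of the regions still had a lower-ranked peak in control cells. A lower place was not always a smaller value. The region inside Filip1, in all 4 cDKO lists and no control list, shows both cases. Its −log10 p was 13.4 at rank 67224 in replicate 1 of control with TGFb only and 6.46 in replicate 1 of control with IL-2. In replicate 2 of cDKO with IL-2 it was 11.5 at rank 62036.

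**Figure D1:**
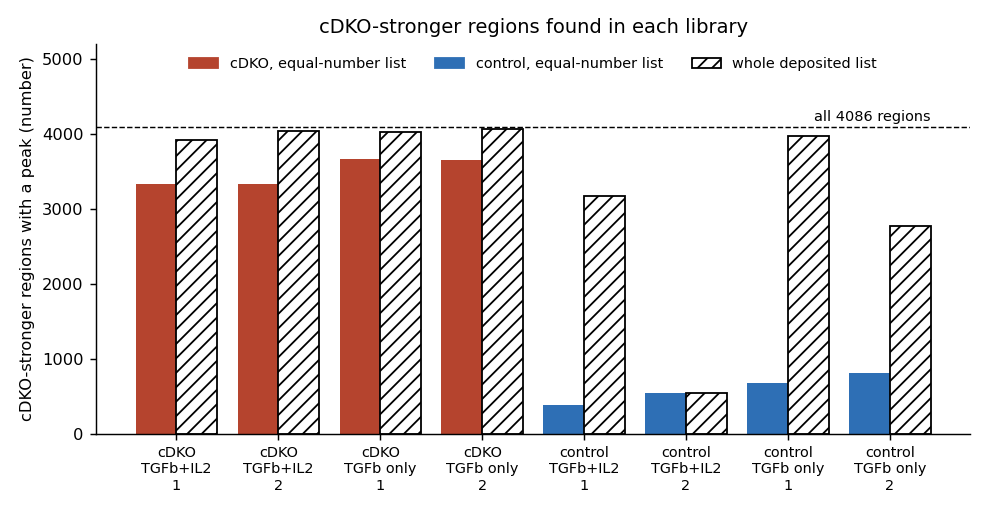
Number of cDKO-stronger regions with a peak in each library, in the equal-number list (filled bars, cDKO red, control blue) and in the whole deposited list (hatched bars), with the total of 4086 as a dashed line. The rule fixes the gap between filled bars, while the hatched bars show that 3 of 4 control libraries held most of the regions lower in their lists and that the shortest list, with 548, could not.

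The membership depended on where the lists were ended. With all deposited peaks, which differ in number between libraries, the same rule gave 5630 regions, of which 470 were among the 4086 (11.5% of the 4086 and 8.35% of the 5630). With lists of 32905 peaks it gave 2153, of which 38 were shared (0.93% and 1.76%). With peaks ranked by fold over background in place of −log10 p it gave 4222, of which 2098 were shared (51.3% and 49.7%). Just inside the rule were 2 regions within Hcrtr2 on chromosome 9, whose weakest cDKO listings had ranks 65794 and 65793. Just outside it were a region 41.5 kb from Tcte2, which had a second control listing at rank 65810, and chr9:52311161-52311473, which missed a cDKO list at rank 65815.

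The regions that stood highest were those listed in all 4 cDKO and no control library with the best worst rank. The 20 best lay in or near Plrg1, Tet2, Aatk, Lrrfip2, Rnf152, Arhgap24, Iltifb, Eomes, Ppp3cc, Tcaim, Ncmap, Tmem131l, Lrrc28, Rptor, Mybpc1, Nkx2-5, Tpp2, Epb41l1, Ubxn11 and Il22. None of them was at a gene end. The list joined immune genes with genes of muscle and heart, such as Mybpc1 and Nkx2-5. Ranks below are places in the whole deposited list, given with IL-2 first. Places beyond the end of the shortened lists come from lists of different length, so they describe a library and are not compared.

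The region with the best worst rank lay 25.5 kb outside Plrg1, which encodes a splicing factor (chr3:83097597-83098072). Its ranks were 22236 and 27355 in cDKO with IL-2 and 27161 and 26277 in cDKO with TGFb only. They were 109402 and not listed in control with IL-2, and 86459 and 68482 in control with TGFb only. The region at Rptor, a subunit of the mTORC1 kinase complex, lay inside the gene (chr11:119624458-119625210). It ranked 34846, 38074, 22591 and 30038 in the cDKO lists, in the same order, and in 2 control lists it was found only at 106095 and 116047. A region inside Ppp3cc, a catalytic subunit of the phosphatase calcineurin, ranked 31595, 33685, 21350 and 35428 in cDKO lists and was in both control TGFb-only lists at 98522 and 72430, and in neither control list with IL-2. For these and all other regions in 4 cDKO and no control lists, the rule itself keeps the cDKO places ahead of the control places.

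Of the 20, the region inside Epb41l1 (chr2:156504711-156504968) was the one with no peak in any deposited control list. Epb41l1 encodes a protein that links membranes to the spectrin cytoskeleton. The cDKO ranks were 37944 and 30119 with IL-2 and 38857 and 30420 with TGFb only. Among the 62 regions with no deposited control peak, 13 were in all 4 shortened cDKO lists. The best-ranked of the 62 after Epb41l1 lay inside Ganc, an alpha-glucosidase gene, inside Zdhhc18, a palmitoyltransferase gene, inside Gfra1, a receptor gene of the GDNF family, and inside Inpp4b, a phosphatase gene of phosphoinositide signalling. The Ganc region ranked 30533, 27754, 43384 and 33912 in the cDKO lists. The Inpp4b region ranked 50307, 97002, 45724 and 43898, so 1 library with IL-2 held it only deep in its list.

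**Figure D2:**
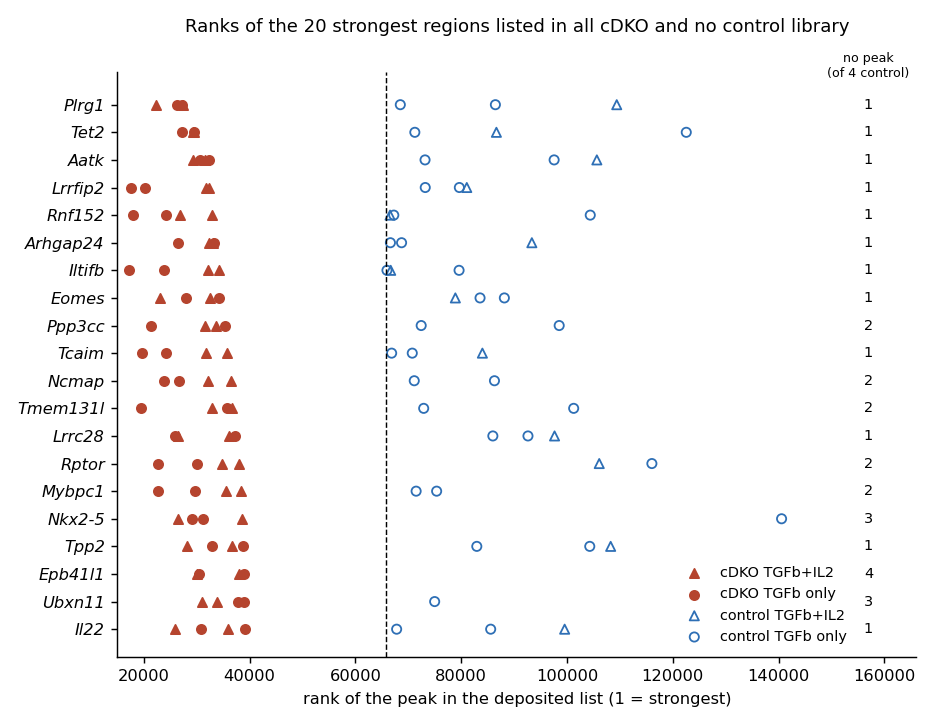
Rank of the peak in each deposited list (horizontal axis, 1 is the strongest) for the 20 best-ranked regions listed in all 4 cDKO and no control library, labelled by gene. Filled red symbols are cDKO and open blue symbols control libraries, triangles with IL-2 and circles with TGFb only, the dashed line is the end of the shortened lists, and the numbers at the right count control libraries with no peak, where replicate 2 of control with IL-2 always counts because its list ends at the line. No cDKO symbol lies beyond 39171, all control symbols lie right of the line, as the rule requires, and Epb41l1 has no control symbol.

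Tet2 encodes the family member that was not deleted. It had 18 listed regions, of which 3 were in 3 to 5 lists, and 2 of these were cDKO-stronger and 0 control-stronger. The first, inside the gene (chr3:133518707-133519333), ranked 29449 and 29248 in cDKO with IL-2 and 29405 and 27126 in cDKO with TGFb only. In control cells it ranked 86650 and was not listed with IL-2, and ranked 122550 and 71227 with TGFb only. The second, also inside the gene (chr3:133510431-133510679), ranked 48470, 57872, 68418 and 40188 in the cDKO lists and 87301, 55558, 77828 and 71153 in the control lists. The places of the second overlapped between the genotypes, and those of the first could not by the rule. Tet1, on chromosome 10, had 13 listed regions, none of them cDKO-stronger or control-stronger. Within 2.5 Mb of Tet1, 8 of the 33 regions in 3 to 5 lists were cDKO-stronger (24.2%) and 7 control-stronger. Among all 17050 regions outside chromosome 6 that stood in 3 to 5 lists, 24.0% were cDKO-stronger and 26.5% control-stronger. Those 2 shares are the background for the counts that follow, because a region must be in 3 to 5 lists to meet either rule.

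A dense run of cDKO-stronger regions lay between Il22 and Ifng on chromosome 10, which encode the cytokines interleukin 22 and interferon gamma. Iltifb, a near-identical copy of Il22 in the mouse, lies between them, so reads there may be split between the copies and the counts at Il22 and Iltifb are uncertain. From chr10:118216067 to chr10:118404741, a span of 189 kb, from the first to the last, there were 8 cDKO-stronger and 0 control-stronger regions. Outside the mapped stretch, 1 further cDKO-stronger and 1 control-stronger region were given to Ifng. The 8 were all the regions in 3 to 5 lists in the stretch shown in the map of the locus. Of the 35 listed regions in that stretch, 13 were in all 8 lists. A further 9 were in 6 or 7 lists, of which 8 were in more cDKO than control lists and 1 in more control than cDKO lists.

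The region 6.19 kb outside Il22 (chr10:118216067-118216405) ranked 35919 and 25789 in cDKO with IL-2 and 39171 and 30708 in cDKO with TGFb only. In control cells it ranked 99554 and was not listed with IL-2, and ranked 67788 and 85568 with TGFb only. The region 6.39 kb outside Iltifb (chr10:118283063-118283419) ranked 34151, 32127, 23751 and 17262 in the cDKO lists and 66665, not listed, 65956 and 79592 in the control lists. Between Iltifb and Ifng, chr10:118343949-118344542 ranked 15609, 29506, 32822 and 29288 in the cDKO lists and 73434, 63122, 85363 and 83211 in the control lists. The rule sets the order for the first 2 of these, while the third was in 1 shortened control list, and its best control place, 63122, was behind all 4 cDKO places. The last of the 8, chr10:118404539-118404741, was weaker, with cDKO ranks of 65684, 41234, 50197 and 72527 and a single control peak at 136980. Around Ifng itself, most regions were in 6 to 8 lists. Ranked by fold over background, the stretch held 5 cDKO-stronger regions and 1 control-stronger region, and with lists of 32905 peaks it held 4 and 3.

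**Figure D3:**
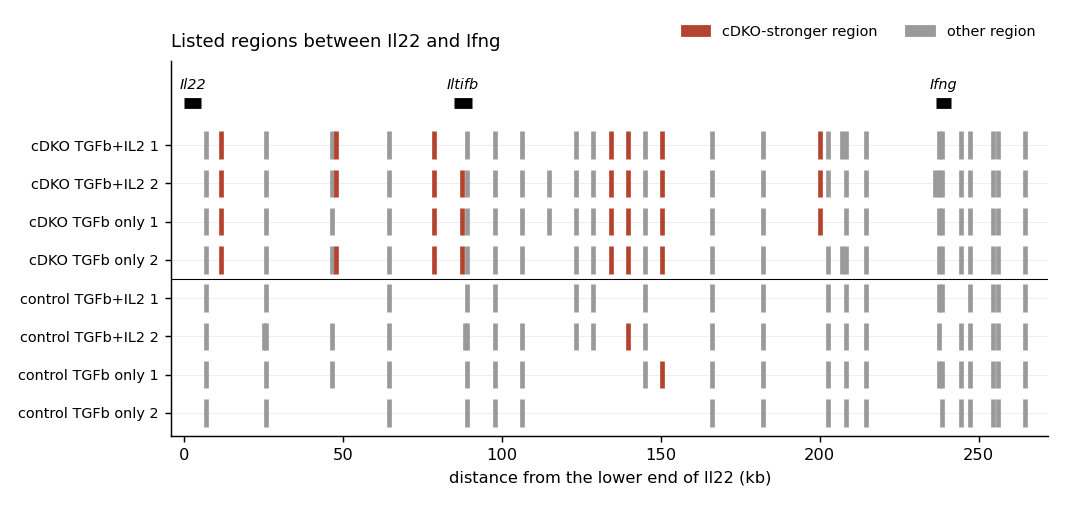
Listed regions from Il22 to Ifng in each of the 8 equal-number lists, by distance in kb from the lower end of Il22, with cDKO-stronger regions in red, other regions in grey and gene bodies in black above. The 8 cDKO-stronger regions form broken columns in the 4 cDKO rows above the line and appear in the control rows below it only at 2 places, while 13 of 35 regions run through all 8 rows.

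Genes of cytotoxic and Th1 cells, the CD4 T cell subset that makes interferon gamma, were examined next. Of 15 cytotoxic-gene regions in 3 to 5 lists, 6 were cDKO-stronger and 2 control-stronger (40.0% and 13.3%). The 6 were 3 near Eomes, 2 near Fasl and 1 near Crtam. Of the 2 control-stronger regions, 1 was given to Tnfsf10 and 1 to Eomes, within the same 9.43 kb as its 3 cDKO-stronger regions. Eomes encodes a T-box factor of cytotoxic and memory cells, and Fasl the death ligand. The Eomes region 72.8 kb away (chr9:118405075-118405736) ranked 32541 and 23042 in cDKO with IL-2 and 34191 and 27939 in cDKO with TGFb only. In control cells it ranked 78890 and was not listed with IL-2, and ranked 83557 and 88154 with TGFb only. The region 1.43 kb outside Fasl ranked 35963, 37377, 49416 and 55838 in the cDKO lists and was in 2 control lists, at 72711 and 112659. Fas, its receptor, belongs to none of the 23 gene lists and had 4 cDKO-stronger regions and 1 control-stronger region among 6 in 3 to 5 lists. For Th1 genes the counts were 7 and 5 of 26 (26.9% and 19.2%), with cDKO-stronger regions at Cxcr3, Ifng, Ifngr1, Il12rb1, Runx3 and Stat4. The control-stronger ones lay at Cxcr3, Hlx, Ifng, Ifngr1 and Stat4, so Cxcr3, Ifng, Ifngr1 and Stat4 had both kinds. The 9 regions of the CD8 and NK cell list gave 4 cDKO-stronger regions and 1 control-stronger region, the one at Eomes. The 4 were the same 3 Eomes regions and 1 at Ncr1, an NK cell receptor gene. Both genes are among the NK cell markers, and the CD8 T cell markers were listed more often in cDKO libraries, as given above. The part of such cells in these counts was not tested.

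Genes of regulatory T cells gave 13 cDKO-stronger and 7 control-stronger regions of 35 in 3 to 5 lists (37.1% and 20.0%). Foxp3 itself, the lineage factor, had 3 listed regions and none in 3 to 5 lists. The cDKO-stronger ones lay at Nrp1 (4), Lrrc32 (3), Ikzf4 (2), Entpd1, Ikzf2, Itgae and Tigit. Nrp1 encodes a co-receptor for semaphorins and a marker of thymus-derived regulatory T cells, Lrrc32 the anchor (GARP) that holds latent TGF-β on the cell surface, and Ikzf4 the zinc finger factor Eos. At Lrrc32, the region 22.3 kb away (chr7:98523879-98524347) was in all 4 cDKO lists and no control list. It ranked 38838 and 52504 in cDKO with IL-2 and 46159 and 40185 in cDKO with TGFb only, and 97945, not listed, 80817 and 82586 in the control lists in the same order. At Nrp1, the region 13.2 kb away ranked 51056, 61220, 37847 and 42842 in the cDKO lists and 83859, not listed, 102472 and 61839 in the control lists, close to overlapping. At Ikzf4, chr10:128668824-128669582 at a gene end ranked 51960, 68150, 49735 and 40732 in the cDKO lists and was in 1 control list, at 70387. The control-stronger regions of this list were spread 1 each over Ctla4, Icos, Ikzf2, Il2ra, Nrp1, Nt5e and Tigit, so 3 genes had both kinds.

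Chemokine receptor and trafficking genes gave 10 cDKO-stronger and 3 control-stronger regions of 30 (33.3% and 10.0%). The 10 lay at Ccr9 (2), S1pr1 (2), Ccr7, Ccr8, Cxcr3, Cxcr4, Itgb1 and Itgb7. The 3 control-stronger ones lay at Ccr6, Cxcr3 and Cxcr4, so Cxcr3 and Cxcr4 had both kinds. Ccr7 brings naive T cells into lymph nodes, S1pr1 lets them leave, and Ccr9 and Itgb7 direct cells to the gut. The Ccr7 region 7.46 kb away (chr11:99136348-99137135) ranked 40289 and 33082 in cDKO with IL-2 and 31570 and 31887 in cDKO with TGFb only. In control cells it ranked 98466 and was not listed with IL-2, and ranked 112312 and 74857 with TGFb only. The S1pr1 region 20.0 kb away ranked 62269, 33501, 38013 and 42132 in the cDKO lists and was in 1 control list, at 100315. The Ccr9 region 17.3 kb away ranked 46727, 41183, 56206 and 52228, against 79400, not listed, 81627 and 78990 in the control lists. The Cxcr4 region 16.0 kb away ranked 42333, 54953, 47688 and 48346 in the cDKO lists, and in the control lists 89178 with IL-2 and 92240 with TGFb only in 1 library each. All 4 regions were in every cDKO and no control shortened list, and all but S1pr1 had a lower-ranked peak in at least 2 deposited control lists.

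Genes of naive and memory T cells gave both kinds of region at most of the genes involved, 21 cDKO-stronger and 28 control-stronger of 87 (24.1% and 32.2%). The cDKO share was close to the background of 24.0%. Foxo1, a factor that keeps T cells quiescent, had 6 cDKO-stronger and 2 control-stronger regions. Bach2, which represses effector genes, had 4 and 5, and Satb1, a chromatin organiser, had 3 and 1. Ets1, Lef1, Bcl11b and Itga6 had 1 cDKO-stronger region each and 5, 4, 3 and 4 control-stronger ones. The Foxo1 region inside the gene (chr3:52299414-52299844) ranked 56408, 53320, 47015 and 42136 in the cDKO lists and 77490, 46133, 88670 and 79975 in the control lists, which overlap through 1 control library. The Bach2 region chr4:32538113-32538366 inside the gene was in all 4 cDKO lists, at 38692, 59215, 31331 and 60745, and in control lists at 71092 and 75560.

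In cytokine pathways the control-stronger regions were the more numerous. For IL-2 and STAT5 genes the counts were 11 cDKO-stronger and 20 control-stronger of 47 (23.4% and 42.6%). The cDKO-stronger ones lay at Bcl2 (3), Lif (3), Jak1, Myc, Pim1, Socs1 and Stat5b. Several of these genes also had control-stronger regions: Bcl2 (5), Jak1 (3), Myc (3), Stat5b (2) and Socs1 (1). Lif encodes a cytokine made by activated T cells, and Stat5b a transcription factor that acts below the IL-2 receptor. Of the 3 Lif regions, 2 were in all 4 cDKO lists and no control list. The one inside the gene (chr11:4268406-4268788) ranked 29366, 61300, 41583 and 55670 in the cDKO lists and 90853, not listed, 75820 and 72588 in the control lists. The region at a gene end of Stat5b (chr11:100858288-100858561) ranked 44147, 54038, 49310 and 53493 in the cDKO lists, against 87868, not listed, 114364 and 70663 in the control lists. For TGF-β and SMAD genes the counts were 11 and 22 of 61 (18% and 36.1%). Ldlrad4, an inhibitor of TGF-β signalling, had 4 of the 11 and 2 of the 22. Tgfbr2, a TGF-β receptor gene, had 0 cDKO-stronger and 5 control-stronger regions. Both lists lost this order under peaks ranked by fold and under lists of 32905 peaks.

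T cell receptor genes gave 18 cDKO-stronger and 38 control-stronger regions of 83 (21.7% and 45.8%). The cDKO-stronger ones included regions at Cd247 (3), Prkcq (3), Cblb (2), Cd5 (2), Ptprc (2), Cd28 and Cd3e. Most of these genes also had control-stronger regions: Cd28 (4), Cd247 (2), Prkcq (2), Cd5 (2), Ptprc (2) and Cblb (1). Cd247 encodes the zeta chain of the receptor complex, and Prkcq a kinase in its path to NF-κB. Fyn and Themis, by contrast, had 0 cDKO-stronger and 7 and 5 control-stronger regions. The Cd247 region at a gene end (chr1:165865235-165865411) ranked 35464, 45430, 36808 and 54509 in the cDKO lists and was in 1 control list, at 122500. The 3 Prkcq regions each had 1 control listing in the shortened lists, in replicate 1 of control with TGFb only. ETS and RUNX factor genes gave 8 and 23 of 57 (14.0% and 40.4%), the lowest cDKO share of the 23 lists. Genes induced by T cell receptor activation gave 6 and 12 of 32 (18.8% and 37.5%), and AP-1 genes 11 and 15 of 39 (28.2% and 38.5%).

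DNA methylation genes gave 8 cDKO-stronger and 5 control-stronger regions of 26 (30.8% and 19.2%). This order was kept in only 7 of 12 other settings. The counts were 6 and 7 with all deposited peaks and 5 and 5 at a −log10 q of at least 5. Besides the 2 at Tet2 there were 2 at Cxxc5, 2 at Dnmt3a, 1 at Dnmt3b and 1 at Mbd2. Dnmt3a and Dnmt3b encode the de novo methyltransferases, and Mbd2 a protein that binds methylated DNA. The Dnmt3b region, 16.7 kb away, was in all 4 cDKO lists at 50079, 51888, 65294 and 38453, and in control lists at 43436 and 72130. Its cDKO and control places overlapped. The 2 Dnmt3a regions were each in 3 cDKO lists and 1 control list, and Dnmt3a also had 1 control-stronger region. Imprinted genes gave 6 and 3 of 15 (40.0% and 20.0%), and 4 of the 6 lay at Gnas, where they were all 4 of the regions in 3 to 5 lists. The Gnas promoter region printed above (chr2:174284071-174284450) ranked 52075, 38724, 36179 and 52545 in the cDKO lists and 88487, not listed, 70092 and 74757 in the control lists. Genes of the germ line, which DNA methylation silences in other tissues, had 5 regions in 3 to 5 lists, of which 3 were cDKO-stronger, at Ddx4, Piwil2 and Slc25a31, and 0 control-stronger. The Slc25a31 region, at a gene end, had no peak in any deposited control list and ranked 75133, 47252, 56313 and 37459 in the cDKO lists. The imprinted and germ line lists each kept the order of their counts in 10 of 12 other settings.

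Th17 genes gave 9 cDKO-stronger and 16 control-stronger regions of 41 (22% and 39.0%), an order that was lost with lists of 32905 peaks and at a −log10 q of at least 5. The other lists were small or closer to balance. Th2 genes gave 5 cDKO-stronger and 4 control-stronger of 15, follicular helper genes 6 and 8 of 34 and genes of glucose and amino acid metabolism 8 and 7 of 26. Interferon response genes gave 3 and 3 of 14. Among genes of other blood cells, the B cell list gave 4 and 4 of 15, the myeloid and dendritic cell list 4 and 6 of 18, and the erythroid list 3 and 1 of 8. Of the 21 lists with unequal counts, 7 had the same order of the 2 counts in all 12 other settings. More cDKO-stronger regions were in the regulatory T cell, cytotoxic, CD8 and NK cell, and chemokine and trafficking lists. More control-stronger ones were in the T cell receptor, activation, and ETS and RUNX lists. Settings that left out 1 library kept every region already counted and added others, so their order was largely built in. Only list length, ranking by fold and the −log10 q limit could drop regions. Longer or shorter peak lists counted largely different regions. Regions near one gene, and genes shared by lists such as Eomes, Cxcr3 and Bach2, are not independent counts.

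**Figure D4:**
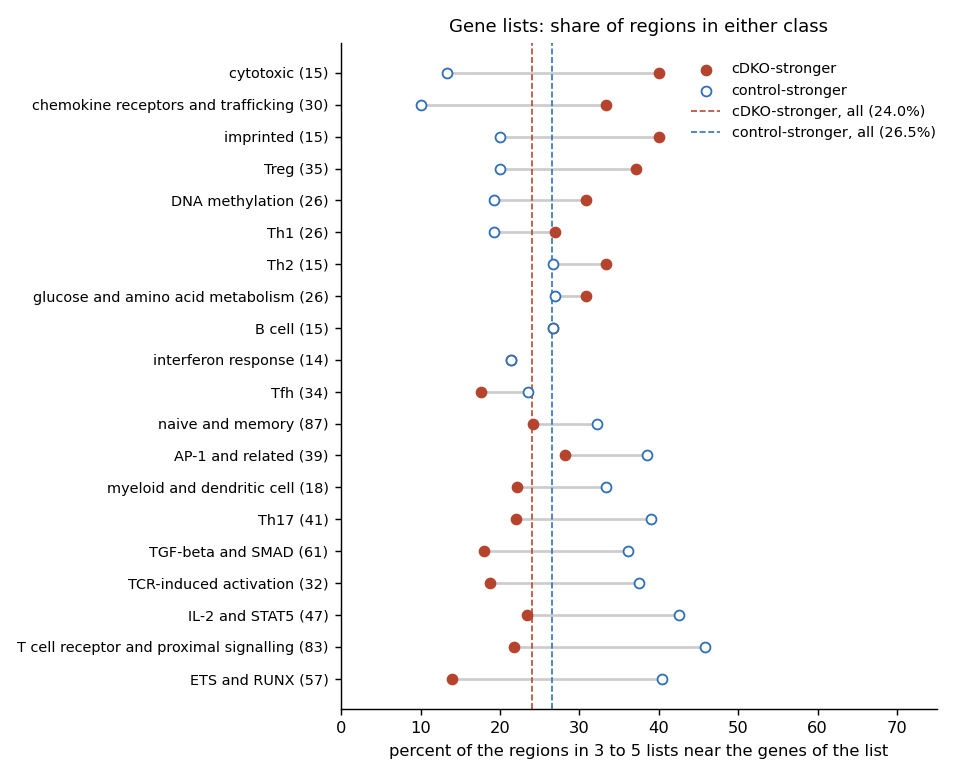
Share of the regions in 3 to 5 lists that were cDKO-stronger (filled red) and control-stronger (open blue) for the 20 gene lists with at least 10 such regions, numbers of regions in brackets, sorted by the difference. Dashed lines mark the shares among all 17050 regions, 24.0% and 26.5%. Cytotoxic genes stand at 40.0% against 13.3% at the top, and ETS and RUNX genes at 14.0% against 40.4% at the bottom.

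The regions were spread thinly over many genes. A region was given to the protein-coding gene that held its midpoint, or else to the nearest within 100 kb, and 3760 of the 4086 (92.0%) had one. They fell to 2929 genes, of which 2326 had 1 region, 436 had 2, and 13 had 5 or more. Of the 2929 genes, 955 (32.6%) also had a control-stronger region. Atp10a, a phospholipid flippase gene, had the most, with 8 of 13 regions in 3 to 5 lists, and those with 6 included Iltifb, Wwox and Foxo1. Prkca, which encodes a protein kinase C, had 5 of 8 and 0 control-stronger. The Atp10a region chr7:58741917-58742332 ranked 26361, 26203, 24140 and 30426 in the cDKO lists and 71779, not listed, 63887 and 66141 in the control lists, so 1 control library held it above the end of the shortened list.

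Some stood in groups. There were 207 groups of at least 3 cDKO-stronger regions within 100 kb, which held 660 of them. The groups also held 192 other regions in 3 to 5 lists, of which 69 were control-stronger. Of control-stronger regions there were 289 such groups, which held 936 of the 4519. The largest groups had 5. They included Atp10a with 5 of 6 regions in 3 to 5 lists, Arl4c and Glrp1 with 5 of 5, Acta2 and Fas with 5 of 5, and Gfi1 and Rpap2 with 5 of 5. Gfi1 encodes a transcriptional repressor that acts in blood cell development and in Th2 cells. Sema4d, a semaphorin of lymphocytes, had a group of 4 of 4 within 41.6 kb. Across all cDKO-stronger regions, the nearest region in 3 to 5 lists was itself cDKO-stronger in 27.2% of cases and control-stronger in 23.6%, beside 23.9% and 26.5% for all regions in 3 to 5 lists. For control-stronger regions the nearest was cDKO-stronger in 21.2% and control-stronger in 30.5%.

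Only a small share of the regions lay at gene ends. Within 1 kb of an end of a protein-coding gene were 366 of the 4086 (8.96%, exact 95% interval 8.1 to 9.87), 208 of the 4519 control-stronger regions (4.6%, 4.01 to 5.25) and 1285 of the 17050 in 3 to 5 lists (7.54%, 7.14 to 7.94). Those 17050 include both sets. The 8445 in neither set were at a gene end in 8.42% of cases (7.84 to 9.03), an interval that overlaps the cDKO-stronger one. The intervals cover counting error only. Regions in all 8 lists were at a gene end in 28.1% of cases. The distance to the regions in 3 to 5 lists, 1.42 percentage points, was 0.0299 with peaks ranked by fold, 0.00754 without replicate 1 of cDKO with IL-2, 0.0734 without replicate 1 of control with TGFb only and 3.17 without replicate 2 of control with IL-2. Some 55.1% were inside a protein-coding gene, against 56.4% of control-stronger regions. Whether they were exonic, intronic or untranslated was not analysed here, since the gene table used gives gene bodies only.

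The regions had a median width of 309 bp, beside 327 bp for all regions in 3 to 5 lists. It was 351 bp for control-stronger regions and 658 bp for regions in all 8 lists. Among the cDKO libraries that listed a region, peak summits lay within 100 bp in 91.7% of the cDKO-stronger regions. Among the control libraries they did so in 79.9% of the control-stronger regions. The cDKO summits of all regions in 3 to 5 lists did so in 94.6%. That set includes regions in fewer cDKO lists, with fewer summits to compare, so its share is not a like measure. Where genes were dense, cDKO-stronger regions were more common. With 40 or more genes within 500 kb, 29.4% of the regions in 3 to 5 lists were cDKO-stronger and 19.4% control-stronger, and with 0 to 4 genes 22.4% and 29.0%. Away from gene ends the shares were 28.0% and 21.8% in the densest bin and 22.4% and 29.4% in the sparsest. Among autosomes, chromosome 17 had the highest cDKO-stronger share of regions in 3 to 5 lists (28.4%), followed by chromosome 2 (28.2%), and chromosome 18 the lowest (20.3%). The share was 17.5% on chromosome X.

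Promoter windows, each from 250 bases before to 50 after a RefSeq start, gave the one view of sequence, because no genome was at hand for the regions themselves. The 161 windows met by a cDKO-stronger region belonged to 153 genes. Their median observed over expected CG content was 0.501, against 0.351 in the 93 windows met by control-stronger regions, 0.607 in 369 windows met by other regions in 3 to 5 lists and 0.764 in all 13879 windows met by any listed region. A value of at least 0.6 was reached by 39.1%, 30.1%, 51.5% and 71.4% of these windows. The cDKO-stronger promoters thus held fewer CG than open promoters in general and more than the control-stronger ones. Median GC content was 58.7% and 50.3% in the cDKO-stronger and control-stronger windows.

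Motif letters were counted in the same windows. The AP-1 letters TGANTCA, searched on both strands, were in 9 of 161 cDKO-stronger windows (5.59%), 25 of 93 control-stronger windows (26.9%), 29 of 369 other windows in 3 to 5 lists (7.86%) and 7.76% of all 30986 windows outside chromosome 6. The 9 included the promoters of Celf5, Ankef1, Acer3, Tfe3 and Rbp4. So the cDKO-stronger share was near that of all windows, and it was the control-stronger share that stood apart. In the other settings the shares ran from 2.45% to 7.56% and from 20.0% to 34.2%. The SP/KLF letters GGGCGG were in 51.6% of cDKO-stronger, 23.7% of control-stronger and 50.9% of other windows. The CRE letters TGACGTCA were in 8 cDKO-stronger windows (4.97%), 2 control-stronger windows (2.15%) and 1.9% of the other windows. ETS letters GGAAGT were in 22.4% and 26.9%, RUNX letters TGTGGT in 18% and 14.0%, TCF/LEF letters CTTTGAA in 6.21% and 5.38%, STAT letters TTCNNNGAA in 6.21% and 11.8%, GATA letters AGATAA in 7.45% and 12.9%, IRF letters (GAAA and GAAA, 2 bases apart) in 3.11% and 3.23%, and CTCF core letters CCACNAGGG in 3.11% and 1.08% of cDKO-stronger and control-stronger windows. GC-rich letters follow GC content, and several windows of one gene can overlap, so windows are not independent.

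**Figure D5:**
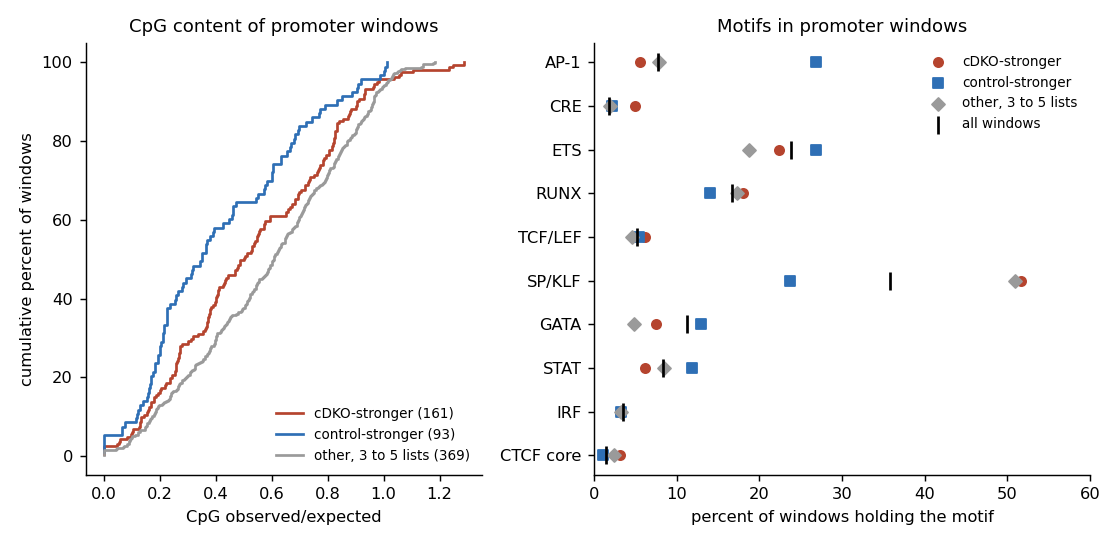
Left, cumulative percent of promoter windows by observed over expected CG content for windows met by cDKO-stronger (red, 161), control-stronger (blue, 93) and other regions in 3 to 5 lists (grey, 369). Right, percent of those windows that hold each motif, with all windows outside chromosome 6 as black bars. The red curve lies between the others for most of its length, and the blue square for AP-1 stands at 26.9%, away from the red 5.59%.

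Places in the lists of the printed promoters were as follows. Celf5 ranked 44653 and 44021 in cDKO with IL-2 and 41482 and 37317 in cDKO with TGFb only, against 80935 and 74791 in replicate 1 of either control arm. Myo1f ranked 43454, 40745, 53456 and 42864 in the cDKO lists and was in 1 control list, at 116034. P2rx7 ranked 39364, 57982, 63986 and 65143, and was in control lists at 85496 and 122475. Aif1l ranked 62860, 62746, 49951 and 54871, against 79822, not listed, 100854 and 85133. The order between libraries with and without IL-2 differed from one promoter to the next.

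Added IL-2 went with fewer or lower listings of these regions. Of the 2380 regions in 3 of 4 cDKO lists, the list without the region was one with IL-2 in 1518 (63.8%) and one with TGFb only in 862. Among all 7714 regions outside chromosome 6 in 3 of 4 cDKO lists, it was one with IL-2 in 57.0%. With all deposited peaks the 2 shares were 61.0% and 57.6%, and with lists of 32905 peaks 62.9% and 55.5%. Of the 2415 regions with a single control listing, that listing was in a library with IL-2 in 936 cases and with TGFb only in 1479. A library with IL-2 held 38.8% of these single listings, beside 55.2% for all 16024 regions with 1 control listing. The 16024 include regions in fewer than 3 cDKO lists, so the 2 shares are not a like measure. Of the 1706 regions in all 4 cDKO lists, 226 (13.2%) ranked higher in both libraries with IL-2 than in either with TGFb only, and 463 (27.1%) ranked lower in both. Over all 46777 regions in all 4 cDKO lists, the shares were 20.0% and 22.2%. Control-stronger regions went the other way. In those in 3 of 4 control lists, the list without the region was one with IL-2 in 46.1%. For all regions in 3 of 4 control lists it was 58.7%. The control lists with IL-2 held 4191 and 3648 of the control-stronger regions. Those with TGFb only held 3991 and 3643, so the control arms overlapped. By library, the cDKO lists with IL-2 held 3326 and 3328 of the 4086 regions and those with TGFb only 3663 and 3647, so the arms did not overlap. Counting regions of every kind, chromosome 6 included, the same lists held 62407 and 64449 with IL-2 and 63791 and 64641 with TGFb only. Those counts did overlap. With 2 libraries per arm the order was not tested.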

How the data were processed

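Open chromatin of mouse CD4 T cells was profiled by ATAC-seq in 8 libraries, 4 groups of 2. The submitters' processing notes list, without order or role, the build GRCm38 (mm10) and the tools HOMER 4.11.1, MACS2 2.2.7.1, Trimmomatic 0.39, DiffBind 2.10.0, SAMtools 1.3.1, ChIPseeker 1.18.0, Bowtie2 2.4.1 and Picard. How reads were shifted, duplicates handled and peaks called is not stated in the labels or lists. The authors deposited 1 peak list per library. Each deposited peak has a fold over background (a ratio), a −log10 p-value and a −log10 q-value, all the authors' own, and the largest q-value listed was 0.05. The deposited score column was not used.

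Peaks were merged at an overlap of at least 1 bp, and ranked within each list by −log10 p, ties by fold. Genes and promoter windows came from RefSeq tables of GRCm38.p6, with 21887 protein-coding genes. Gene bodies carry no strand there, and no genome sequence was at hand, so sequence was read in promoter windows only. Of 374 genes in 23 lists, 366 matched. Their regions on chromosome 6 were not counted. The genotype contrast chose the regions, so no test was run on it, and there are no p-values. The regions and the gene lists were chosen with earlier results of these data known. Named regions were the 20 best by worst cDKO rank among those in all 4 cDKO and no control lists, 10 with no deposited control peak, the genes with most regions and up to 3 per gene list. Others were chosen after their values were seen, and some genes are not reported here. Groups follow the sample titles. Alternatives were list length, ranking by fold, a −log10 q of at least 5, 50% cover of a region, merging across gaps, gene end width and leaving out each library. The counting was tested on simulated lists. Scripts used Python 3.11.15, pandas 2.3.3, NumPy 2.4.6, SciPy 1.17.1 and Matplotlib 3.10.9.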

Additional observations from a re-analysis of the deposited data

Results flagged for a closer look

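In 32 groups of 4 libraries, 4 held a library that lay far from the other 3 by Dixon's criterion for the gap relative to the range, and chance flags about 1 in 20 groups. The median rank of the cDKO-stronger regions that its shortened list held was 57472 in replicate 1 of control with IL-2, apart from the other control libraries. Replicate 2 of cDKO with IL-2 listed 903 of the control-stronger regions, against 358 to 423 in the other cDKO libraries. Replicate 2 of cDKO with TGFb only ranked the Tet2 region at chr3:133518707-133519333 at 27126 and the region inside Arhgap24 at 26415. Both are better places than in the other 3 cDKO libraries.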

How the results depend on the processing

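With lists of 32905 peaks there were 2153 cDKO-stronger and 2250 control-stronger regions, 367 in all 4 cDKO lists and no control list (386 at a −log10 q of at least 5), and 762 and 449 regions lacking 1 list with IL-2 or 1 with TGFb only. The count lacking 1 TGFb-only list was 1413 with all deposited peaks. Regions with no deposited control peak numbered 0 with the shorter lists, 1576 with all deposited peaks, 111 ranked by fold and 328 at a −log10 q of at least 5. The share of cDKO-stronger regions at a gene end was 13.7% with the shorter lists, 7.39% with all deposited peaks, 7.6% ranked by fold, 10.6% where a peak had to cover 50% of a region, 8.07% at a −log10 q of at least 5 and 16.2% with gene ends of 2.5 kb. For regions in 3 to 5 lists it was 11.0%, 6.4%, 9.0%, 6.49% and 14.1% under the same settings other than fold. The AP-1 share of cDKO-stronger promoter windows was 2.45% with all deposited peaks and 2.54% ranked by fold, settings chosen after seeing the data.

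Leaving out 1 library loosened the rule by 1 list and so raised the counts: 5459 to 6791 cDKO-stronger, 5633 to 7125 control-stronger, 758 to 973 in all cDKO and no control lists, 67 to 429 with no deposited control peak, 1810 to 2102 and 1154 to 1206 lacking 1 list with IL-2 or with TGFb only. Gene-end shares were 7.61% to 11.0% and 7.61% to 7.99%, and AP-1 shares 4.76% to 7.56% and 20.0% to 27.0%. The order by IL-2 cannot be counted without a cDKO library. The planned windows of 300 bases at region midpoints were not run, since no genome was at hand. No paired analysis was possible because the results come from no test and the labels do not say what same-numbered replicates share. The lists give no read depth, so a region absent from a list was not detectable there at an unknown depth.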
